A study of Rattus norvegicus with 27 samples.

Results

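The comparison set high against low dietary salt in Dahl salt-sensitive (SS) rats of the MCW colony, with the same diet base on both sides. Its members were the 7 libraries of the colony in the first deposited table, of 27 libraries in the series, chosen by their strain and diet labels. DNA methylation was measured by reduced representation bisulfite sequencing (RRBS) of genomic DNA from the renal outer medulla. The 3 rats of MCW_LS ate AIN-76A, a purified diet, with 0.4% NaCl up to an age of 8 weeks. The 4 rats of MCW_HS were given AIN-76A with 4% NaCl for 14 days, beginning at 6 weeks of age. No transgene, drug or surgery is named for these rats, and every library is labelled as 1 animal. The series also holds the CRL colony of the same strain, whose low-salt rats (CRL_LS, n = 4) ate the non-purified diet 5L2F with 0.75% NaCl up to 8 weeks of age. The CRL_HS rats (n = 4) were given the same purified 4% NaCl food as MCW_HS, from an age of 6 weeks and over 14 days. A second experiment on salt and antisense oligonucleotides also used SS rats of the MCW colony. It entered here only through its rats on 0.4% NaCl before treatment (PRE_LS, n = 4) and those with a scrambled oligonucleotide and 7 days of 4% NaCl (HS_SCR, n = 4).

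Dahl SS rats are an inbred strain in which blood pressure rises when the diet is rich in salt. The outer medulla contains the medullary thick ascending limbs, which reabsorb sodium chloride, together with collecting ducts and vessels. Methylation of cytosine in the dinucleotide CpG is set by the Dnmt enzymes and removed through oxidation by the Tet enzymes. Promoters rich in CpG are usually unmethylated in normal tissue, and most other CpGs of a mammalian genome are highly methylated. In RRBS a CpG-rich part of the genome is cut out and treated with bisulfite, so that a methylated cytosine is read as C and an unmethylated one as T. The methylation level of a site in a rat is the percentage of C among its C and T reads.

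The 7 libraries held 44054860 to 95102303 reads at CpG positions. MCW_LS replicate 2 was the deepest, with a median of 66 reads at the 484749 sites that had at least 10 reads in each of the 15 libraries of the table (common sites). The median of the other 6 libraries was 31 to 54 reads. The labels of all 15 libraries give the same lane number. MCW_LS replicates 1 and 2 share an index, and so do MCW_HS replicate 1 and CRL_LS replicate 3. The letters RP stand on MCW_LS replicate 1 in a title and on MCW_LS replicate 2 in the description and column name. They also stand on CRL_LS replicate 3, and their meaning is not given. Whole outer medulla was sampled, so a change in the mixture of cells and a change of methylation within a cell type cannot be told apart in any result that follows.

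Sites of intermediate methylation stood higher in every high-salt rat than in any low-salt rat, by less than 1 percentage point on average. Over the 89565 common sites with a mean level of 20 to 80%, the MCW_LS rats stood at 48.2%, 48.3% and 48.6%, and the MCW_HS rats at 48.6%, 49.1%, 49.7% and 49.6%. The groups did not overlap, although the highest low-salt rat and the lowest high-salt rat both round to 48.6%. The difference was 0.883 points (SE 0.278, higher in 12 of 12 pairs of rats). The exact two-sided permutation test gave p = 0.0571 (adjusted p = 0.343 over 6 sets of sites), so the difference did not pass it. Only 35 arrangements of 3 against 4 rats exist, which limits how small its p can be. With sites weighted by their reads, the groups overlapped. The low-salt rats were then at 45.9%, 45.6% and 48.4% and the high-salt rats at 46.4%, 49.1%, 48.6% and 48.8%, a difference of 1.59 points (exact permutation p = 0.171). The groups also overlapped with a minimum of 20 reads per library (0.848 points, exact permutation p = 0.114). The animal numbers of the labels fall in the ranges 1155 to 1184 and 1245 to 1249, each with rats of both diets. The difference was 0.602 points within the first (2 against 2 rats) and 1.04 points within the second (2 MCW_HS rats against 1 MCW_LS rat).

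The other classes of sites showed smaller differences, with overlapping groups. Sites under 20% differed by 0.0731 points (SE 0.142, higher in 7 of 12 pairs) and sites over 80% by 0.162 points (SE 0.273, 9 of 12 pairs). Over all common sites, the low-salt rats had 23.1%, 23.4% and 23.4% and the high-salt rats 23.2%, 23.6%, 23.9% and 23.6%. MCW_HS replicate 1 lay within the low-salt range and the other 3 high-salt rats above it. That difference was 0.236 points (SE 0.165, 10 of 12 pairs, exact permutation p = 0.286). Weighted by reads it was 0.739 points, with a wider spread of rats (16.9 to 21.4% on high and 17.9 to 21.2% on low salt, exact permutation p = 0.686).

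**Figure D1:**
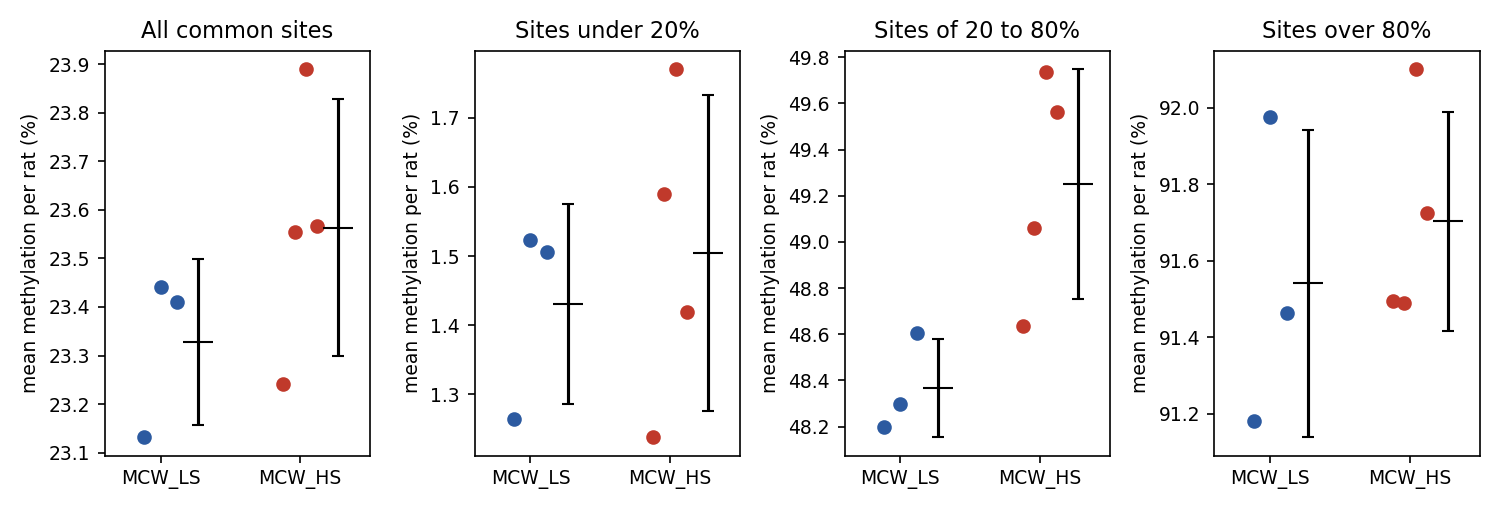
Mean methylation per rat (percent, axes not starting at 0) in 4 sets of common sites, for 3 MCW_LS rats (blue) and 4 MCW_HS rats (red). Each point is a rat, the horizontal tick is the group mean and the bar is the SD. Only in sites of 20 to 80% did the groups not overlap.

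The direction was the same on each chromosome. The mean level over common sites was higher in MCW_HS than in MCW_LS on 21 of 21 chromosomes. The differences ran from 0.00375 points on chromosome X to 0.475 on chromosome 14. Chromosome X had the highest low-salt level, 40.2%, and chromosome 10 the lowest, 18.5%. Chromosome 14 also had the widest spread, with SDs of 0.832 and 0.916 points in the low-salt and high-salt rats. No chromosome passed the exact permutation test (smallest adjusted p = 0.424 over 21 chromosomes). The chromosomes share the same 7 rats and are not independent replicates.

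Diet did not separate the rats in their profiles as a whole. Over 28188 bins of 500 bp (at least 3 common sites and a pooled level from 5 to 95%), 2 rats of the same group differed on average by 4.83 to 5.59 points within MCW_HS (median 5.21 over 6 pairs) and by 5.11 to 5.54 points within MCW_LS (median 5.17 over 3 pairs). A high-salt and a low-salt rat differed by 4.73 to 5.71 points (median 5.35 over 12 pairs). The closest pair of rats was MCW_LS replicate 2 and MCW_HS replicate 3, of different diets, and these are also the deepest libraries. They had the lowest mean distances to all other rats, 5.11 and 4.98 points.

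In the quasi-binomial model with limma's moderated dispersion, no 500 bp bin was called at an adjusted p of 0.05 (0 of 28188 bins, 0% called, smallest adjusted p = 0.576). At an unadjusted p under 0.05 the count was 1755 bins, or 6.23%, of which 1117 were higher (3.96%) and 638 lower (2.26%) on high salt. In simulated counts of the same depth, unchanged features also reached that p more often than 0.05 of the time. limma on log ratios called 0 bins too, with 1585 at an unadjusted p under 0.05. Bins with groups that did not overlap made up 6.1% (1720 bins). A difference of at least 10 points was seen in 1020 bins (3.62%) and one of at least 20 points in 56, while the median SE of a bin's difference was 2.85 points.

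More bins leaned up than down on high salt among those that passed the filter on level, and the lean differed between classes of level. The pooled level behind the filter is taken from the same rats, most of them on high salt, so the filter is not independent of the difference. Its part in the lean was not tested. Of the 28188 bins, 54.6% were higher in MCW_HS, with a median difference of 0.342 points. In bins with a mean level of 5 to 20%, 198 were higher and 61 lower at an unadjusted p under 0.05, 11.2% of 2313 bins. From 20 to 80% the counts were 775 and 430 (6.04% of 19963 bins), and from 80 to 95% they were 144 and 147 (4.92% of 5912 bins). With nearly unmethylated bins admitted, the share of higher bins was nearer to even and the counts at that p turned around. Among 20859 bins with a pooled level under 5%, 507 were higher and 1204 lower at that p, and without any filter on level the split over 49833 bins was 1759 higher against 1918 lower at that p, with 51.4% of all bins higher and a median difference of 0.0239 points. In these low bins the mean level followed single rats more than diet. It was 0.618%, 0.898% and 0.674% in MCW_LS and 0.597%, 0.728%, 0.945% and 0.677% in MCW_HS, so the highest values were in MCW_HS replicate 3 and MCW_LS replicate 2, the libraries with the most reads.

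**Figure D2:**
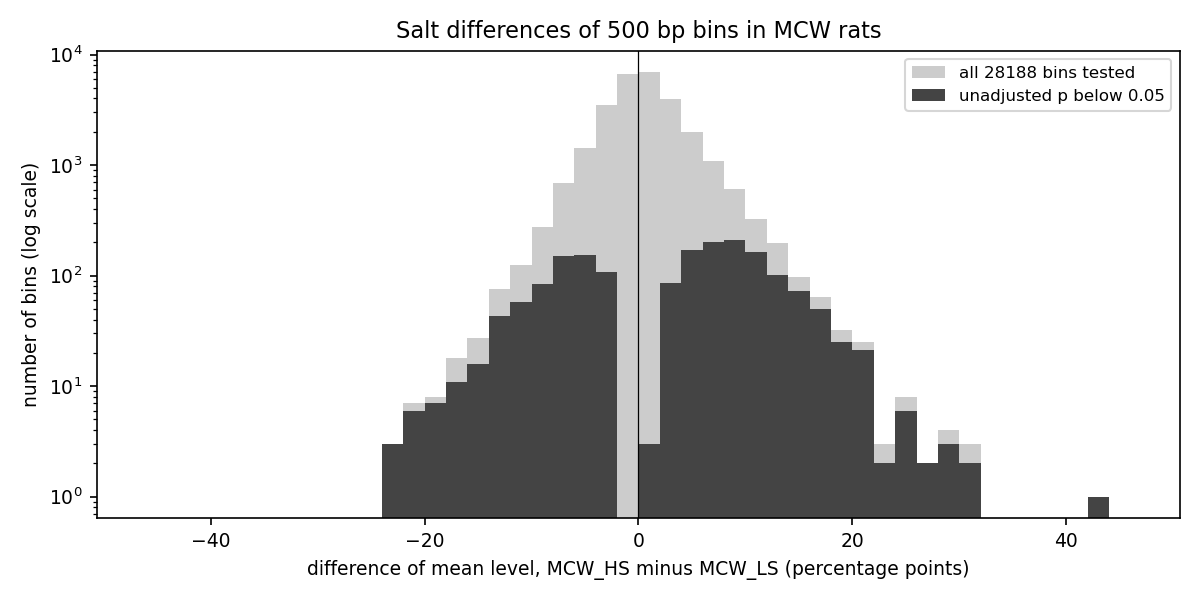
Number of 500 bp bins (log axis) by the difference of mean level between MCW_HS and MCW_LS in percentage points, for all 28188 bins tested (light) and those with an unadjusted p under 0.05 (dark). The dark bars hold 1117 bins to the right of 0 and 638 to its left.

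The share of bins at a small unadjusted p was higher near gene starts. Gene starts were placed on the table's rn5 positions by matching the spacing of CpGs in RefSeq promoter windows of GRCr8, which placed 9556 windows. Of the 990 tested bins within 2 kb of a placed start, 106 (10.7%) had an unadjusted p under 0.05, 82 higher and 24 lower. At 2 to 10 kb the share was 6.25% of 2160 bins, at 10 to 100 kb it was 6.30% of 9811 and beyond 100 kb 5.88% of 15227. Bins within 2 kb had a lower median level in MCW_LS (33.3%) than those beyond 100 kb (70.0%). The filter on level, taken from the same rats, applies to these bins too. Bins with a mean level of 5 to 20%, at any distance, had a like share (11.2%, 198 higher and 61 lower). The part of the filter in the share near starts was not tested. Without MCW_LS replicate 2, the share within 2 kb was 7.98% (56 higher, 22 lower) and that over all bins 4.65%. The shares were not tested against each other, because neighbouring bins of the same 7 rats are not independent.

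The 24 bins with the smallest p, 12 in each direction, differed by 5.65 to 21.9 points between the diets. They were chosen by that p and their values are a description. Their adjusted p was 0.576 to 0.667 in the quasi-binomial model with limma moderation, and 23 of the 24 had groups that did not overlap. Of the 24, 4 lay within 10 kb of a placed gene start, and of all tested bins 11.2% did.

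Among the higher bins, the smallest p belonged to chr11:33583501-33584000 (rn5, 6 common CpGs), which had no placed gene start within 100 kb. Its level was 27.3%, 21.6% and 26.0% in MCW_LS and 42.2%, 41.5%, 44.4% and 41.3% in MCW_HS. Every high-salt rat stood above every low-salt rat, and all 6 CpGs had the higher mean on high salt. Their differences ran from 5.39 points at position 33583840 to 31.6 points at position 33583768. The bin's difference was 17.4 points (SE 1.86, adjusted p = 0.576 by the quasi-binomial model).

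The next bin, chr15:107591501-107592000 with 13 CpGs, lay 2450 bp downstream of the start of Dzip1, a zinc finger protein of the ciliary base. The low-salt rats had 11.4%, 11.9% and 15.9%, and the high-salt rats 26.7%, 24.5%, 23.7% and 26.4%. The difference was 12.3 points (SE 1.59, adjusted p = 0.576 by the same model). Of its 13 CpGs only position 107591608 had a lower mean on high salt, by a difference of -0.407 points.

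The bin chr1:102700001-102700500 lay 71 bp upstream of the start of Mamstr, a coactivator of MEF2 transcription factors in muscle. It was at 11.5%, 13.5% and 15% in MCW_LS and at 20.9%, 31.1%, 28.0% and 31.7% in MCW_HS. MCW_HS replicate 1 was the lowest of the high-salt rats there, still above all low-salt rats. The bin chr13:110710001-110710500, with 11 CpGs, lay 48218 bp upstream of the start of Esrrg, an orphan nuclear receptor of oxidative metabolism. It had 13.1%, 7.62% and 8.16% on low salt against 20%, 18.0%, 18.0% and 17.5% on high salt. A bin 662 bp downstream of the uncharacterised gene LOC120101515, chr3:13750501-13751000, had 61.8%, 55.5% and 58.9% against 70.4%, 71.4%, 68.9% and 71.1%. The largest difference of the 12 higher bins was 21.9 points, at chr13:109987001-109987500, where MCW_HS replicate 4 (30.7%) was well under the other high-salt rats (39.0 to 44.3%).

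Among the lower bins, chr14:15629501-15630000 had the smallest p. It was at 65.4%, 64.4% and 57.8% in MCW_LS and at 50.6%, 51.7%, 49.1% and 48.6% in MCW_HS. All 6 of its CpGs had the lower mean on high salt, and the difference was -12.5 points (SE 2.49, adjusted p = 0.576 by the quasi-binomial model). The only lower bin within 10 kb of a placed start, chr20:12846501-12847000, lay 8039 bp downstream of the start of Sik1. Sik1 encodes salt-inducible kinase 1, a kinase of the AMPK family that takes its name from the adrenal glands of salt-fed rats. The bin had 81.9%, 80.7% and 86.7% on low salt and 69.3%, 61.4%, 70.3% and 66.4% on high salt, a difference of -16.2 points (SE 2.71, adjusted p = 0.66 by the same model). On the common sites of the 7 MCW libraries, which bring more CpGs into the bin, the difference was -8.68 points. CRL rats had 81.5% on high and 75.5% on low salt in this bin, overlapping and opposite to the MCW rats. HS_SCR rats had 79.2% and PRE_LS rats 81.5%, also overlapping. Sik1's promoter window itself was nearly unmethylated, at 0.140% in MCW_LS and 0.122% in MCW_HS.

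In the lower bins 1 rat sometimes set the spread. The bin chr10:10883001-10883500 had its largest difference at a single CpG, position 10883491, of -51.7 points. The difference of that bin was -19.4 points, and -8.49 points on the common sites of the 7 MCW libraries. At chrX:98895001-98895500, the 1 named bin with overlapping groups, MCW_LS replicate 1 had 55.7%, inside the high-salt range of 45.0 to 60.4%, and the other low-salt rats had 77.4% and 78.2%. Of the 24 named bins, 6 had other measured bins close by, nearly unmethylated ones included. Of those 9 neighbours 4 differed in the direction of the named bin.

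**Figure D3:**
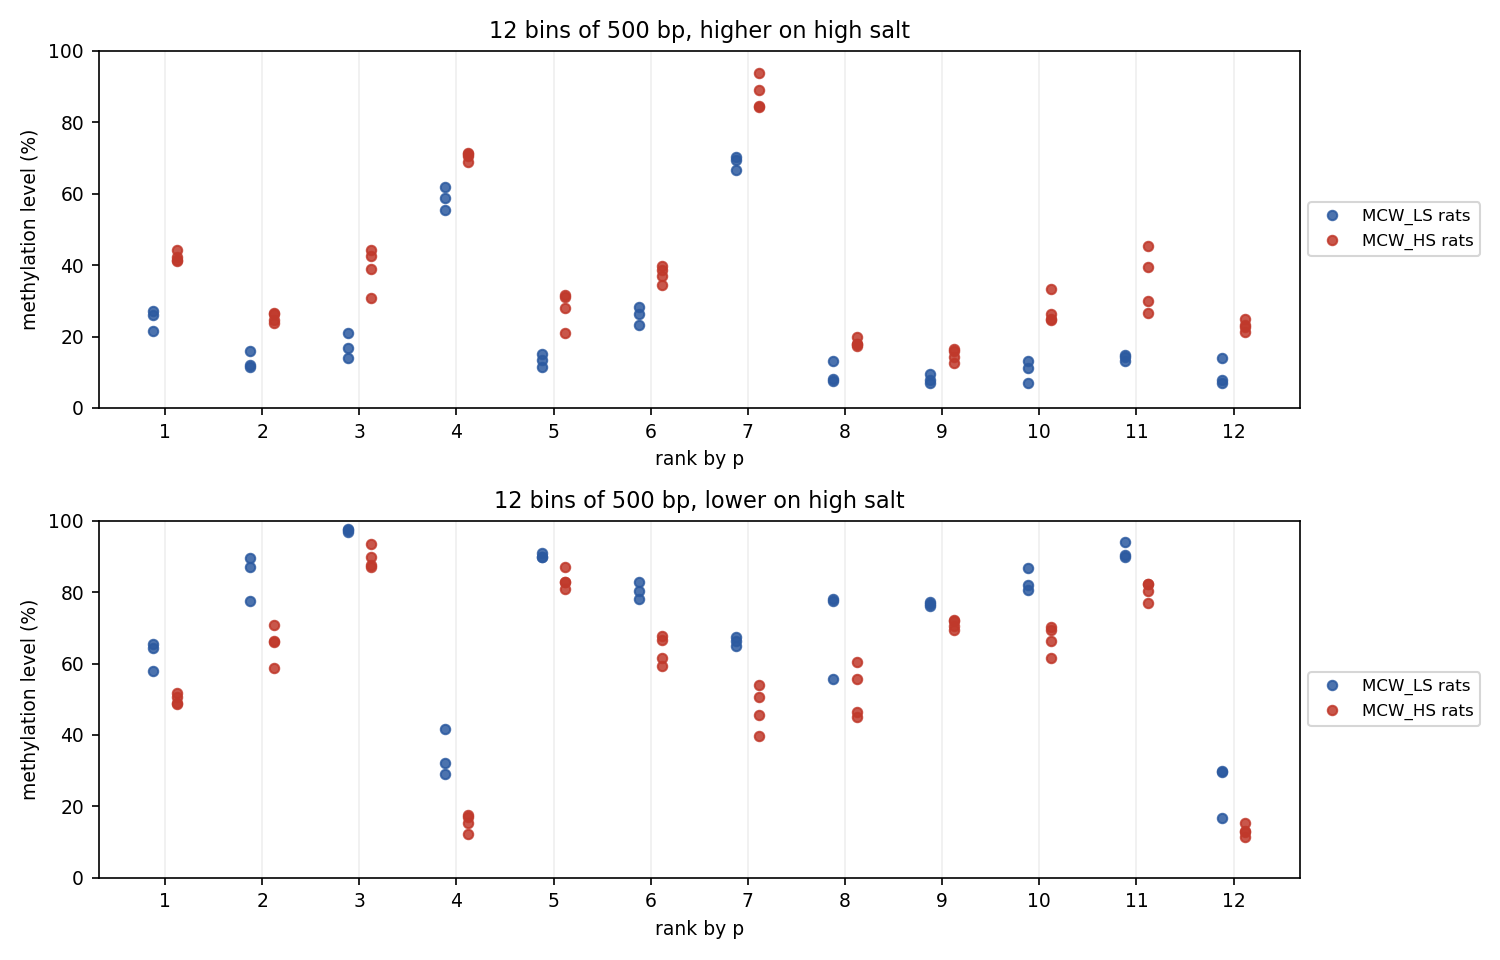
Methylation level (percent) of each rat in the 24 named bins, 12 higher (upper panel) and 12 lower (lower panel) on high salt, with MCW_LS rats in blue and MCW_HS rats in red. In 23 of the bins the colours do not overlap, which is partly how the bins were chosen.

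The same bins showed no common direction in other rats. In the CRL colony 12 of the 24 bins differed in the MCW direction, and between HS_SCR and PRE_LS, also of the MCW colony, 11 of 24 did. At the Mamstr bin, CRL_HS rats had 22.7% and CRL_LS rats 14.0%, with overlapping groups. At the Dzip1 bin they had 15.3% and 22.4%, also overlapping and opposite to the MCW rats. The CRL groups did not overlap at 2 of the 24 bins, against 3.08% of all tested bins, both in the MCW direction. At chr3:13169501-13170000 CRL_HS rats had 26.3% and CRL_LS rats 13.8%, and at chr2:195806501-195807000 they had 86.0% and 90.5%. Over all 28188 bins, the salt differences of the MCW and CRL rats had a Pearson r of 0.0514 across bins, with 52.1% of the same sign, and those of MCW and HS_SCR against PRE_LS had r = 0.0334 over 26822 bins, with 50.9% of the same sign. Bins are not independent replicates, and the CRL diets also differed in base. A salt-by-colony term in the quasi-binomial model was called at 0 of 28130 bins (smallest adjusted p = 0.694, 1503 bins or 5.34% at an unadjusted p under 0.05). At the 24 named bins, the adjusted p of that term was 0.802 to 0.999, and 14 of them had an unadjusted p under 0.05. These bins were chosen by their p in the MCW rats, so that count is a description only.

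The promoters that could be matched were nearly unmethylated in all 7 rats. They are CpG-rich ones, since a match needed 8 CpGs and only 17215 of 33469 RefSeq windows hold 7 or more. Of 5222 matched promoter windows (300 bp, from 250 before to 50 after the start) with at least 3 common sites, 95.7% had a mean level under 5%. The sites in matched windows stood at 1.17%, 1.44% and 1.23% in MCW_LS and 1.13%, 1.25%, 1.46% and 1.23% in MCW_HS, with overlapping groups and a difference of -0.0124 points (SE 0.109, exact permutation p = 0.914). In the 219 windows with a pooled level from 5 to 95%, the quasi-binomial model with limma moderation called none (0%, smallest adjusted p = 0.299). At an unadjusted p under 0.05 there were 18 windows (8.22%), 16 higher (7.31%) and 2 lower (0.913%), while limma on log ratios gave 0 called and 19 at that p. Without MCW_LS replicate 2 the count at that p was 7, of which 5 were higher and 2 lower. Without a filter on level the split at that p was 143 higher against 380 lower. Some windows overlap, so a stretch can be counted more than once in these splits. The pooled level of the filter comes from the same rats, most of them on high salt.

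The sequences of 4 promoters are shown to give the CpGs behind the levels described next, although none of these windows was called. Each is the 250 bases before the start in RefSeq on GRCr8, 5′ to 3′ on the gene's strand, with the CpGs that are common sites in capitals.
Gng5: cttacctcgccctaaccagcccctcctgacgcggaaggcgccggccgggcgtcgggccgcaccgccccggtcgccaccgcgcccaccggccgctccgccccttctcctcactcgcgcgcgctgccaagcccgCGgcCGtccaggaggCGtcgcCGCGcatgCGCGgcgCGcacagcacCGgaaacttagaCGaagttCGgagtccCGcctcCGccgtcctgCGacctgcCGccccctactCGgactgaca
Gp1bb: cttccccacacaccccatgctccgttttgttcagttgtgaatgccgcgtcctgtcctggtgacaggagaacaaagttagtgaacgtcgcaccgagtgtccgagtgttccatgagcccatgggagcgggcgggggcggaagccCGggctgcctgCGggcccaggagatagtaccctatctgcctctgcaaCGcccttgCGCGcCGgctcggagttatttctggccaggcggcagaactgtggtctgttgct
Duoxa1: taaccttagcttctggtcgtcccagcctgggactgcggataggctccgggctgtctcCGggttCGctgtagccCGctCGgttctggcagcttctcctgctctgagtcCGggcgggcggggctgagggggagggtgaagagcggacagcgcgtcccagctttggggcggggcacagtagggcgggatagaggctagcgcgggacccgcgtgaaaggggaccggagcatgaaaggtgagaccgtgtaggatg
Casr: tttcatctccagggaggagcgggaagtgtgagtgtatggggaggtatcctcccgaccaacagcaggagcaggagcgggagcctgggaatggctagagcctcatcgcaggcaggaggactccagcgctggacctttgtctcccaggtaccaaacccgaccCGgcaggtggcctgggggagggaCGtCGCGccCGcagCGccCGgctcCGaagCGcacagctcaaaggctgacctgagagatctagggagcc
The first lies at chr2:238054704-238054953 on the plus strand and encodes gamma subunit 5 of heterotrimeric G proteins. The stretch of Gp1bb, the beta chain of the platelet glycoprotein Ib, lies at chr11:95882311-95882560, also on the plus strand. Duoxa1, a maturation factor of the hydrogen peroxide producing dual oxidase 1, has its stretch at chr3:129714007-129714256 on the minus strand. Casr, the calcium-sensing receptor, which acts in the thick ascending limb, has its stretch at chr11:77740364-77740613 on the plus strand. They hold 41, 18, 21 and 15 CpGs in that order, of which 16, 6, 5 and 9 were common sites. The common sites sit in 1 part of each stretch, so the levels do not describe the whole promoter.

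The Gng5 promoter was low in all rats and higher in 3 of the 4 high-salt rats. Over the 23 measured CpGs of its window the MCW_LS rats had 7.83%, 6.85% and 6.20%, and the MCW_HS rats 7.05%, 15.2%, 16.9% and 21.3%. MCW_HS replicate 1 lay among the low-salt rats. The difference was 8.14 points (SE 3.02, adjusted p = 0.299 by the quasi-binomial model). The window of Spata1, on the other strand, covers the same 23 CpGs, and that of LOC134485993 overlaps both with 30 CpGs. LOC134485993 had 5.42%, 5.37% and 4.53% on low salt and 5.88%, 13.0%, 13.9% and 15.8% on high salt, without overlap. Left without MCW_HS replicate 1, the lowest high-salt rat there, the model called this stretch (adjusted p = 0.0210 for LOC134485993, a difference of 9.11 points). Its 3 windows were then the only ones called. In the LOC134485993 window CRL rats had 6.20% on high and 5.77% on low salt, with overlapping groups. HS_SCR rats had 5.44% and PRE_LS rats 4.63%, also overlapping.

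The window with the smallest p was that of Gp1bb, with 6 CpGs read 220 to 388 times per rat. It was at 29.3%, 24.5% and 24.5% in MCW_LS and at 36.4%, 38.6%, 56.3% and 46.3% in MCW_HS. The groups did not overlap, as in 8.68% of the 219 windows, and the high-salt rats were spread widely (44.4% ± 9.0 SD, n = 4, against 26.1% ± 2.78, n = 3). The adjusted p was 0.299 by the quasi-binomial model. CRL rats had 34.4% on high and 38.0% on low salt there.

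Duoxa1 had 2.21%, 4.91% and 5.26% on low salt and 6.06%, 6.06%, 13.7% and 19.4% on high salt, over 5 CpGs. The groups did not overlap, but the first 2 high-salt rats were within 1 point of a low-salt rat, and without MCW_HS replicate 4 the difference was 4.49 points. The difference was 7.19 points (SE 3.39, adjusted p = 0.503 by the quasi-binomial model). The mean of the low-salt rats, 4.13%, lay under the 5% bound of the filter on level. The window passed that filter only through its high-salt rats (mean 11.3%), so its direction is no independent result. Six6os1, a gene of meiotic chromosome pairing, was at 71.2%, 66.7% and 74.1% against 84.5%, 82.1%, 81.1% and 81.8%, over 4 CpGs. Asb2, the substrate receptor of a ubiquitin ligase, was at 31.6%, 26.4% and 32.8% against 33.7%, 39.2%, 46.6% and 34.3%, a difference of 8.14 points, or 5.42 without MCW_HS replicate 3. At Chmp4b, a subunit of the membrane-cutting ESCRT-III complex, the groups overlapped (30.3% ± 4.23 SD, n = 3, against 39.1% ± 6.32, n = 4).

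Many of the lower windows named belong to uncharacterised genes. Col6a5, a chain of collagen VI, had 11.5%, 17.4% and 29.9% on low salt and 9.77%, 13.8%, 10.5% and 14.5% on high salt. MCW_LS replicate 3 stood apart from its group there, and the rest overlapped. The difference was -7.42 points, -2.27 without that rat and -11.5 without MCW_LS replicate 1. Lyrm1 was at 16.0%, 21.8% and 27.1% against 12.2%, 17.5%, 18.5% and 8.12%, a difference of -7.54 points, or -4.81 without MCW_LS replicate 3. The 12 lower windows had an adjusted p of 0.476 to 0.573 by the quasi-binomial model.

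**Figure D4:**
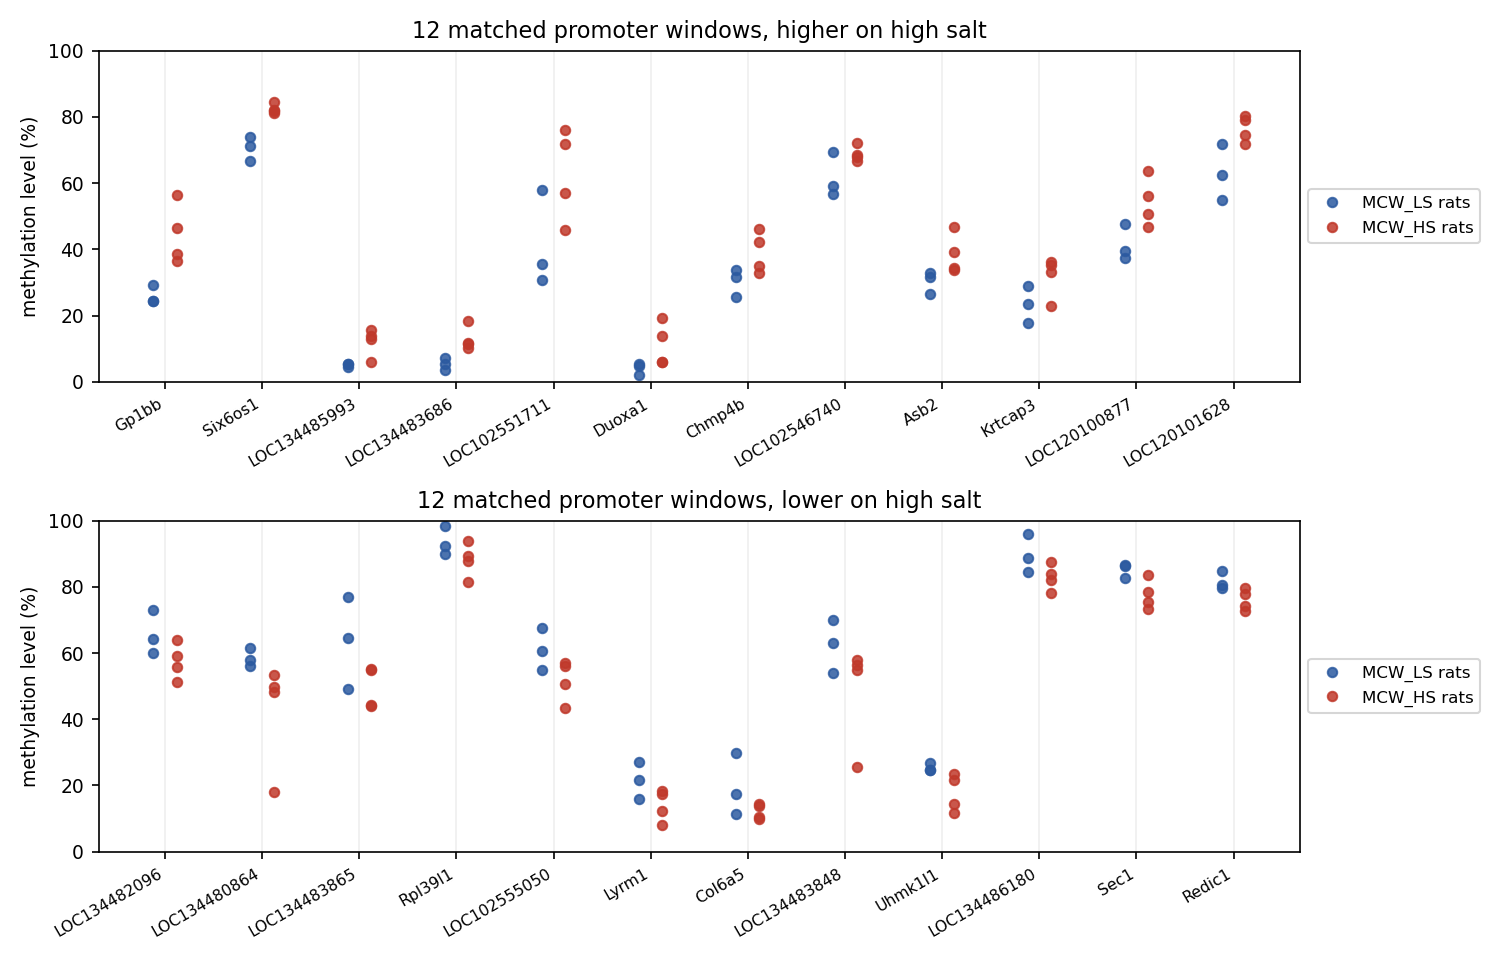
Methylation level (percent) of each rat in the 24 named promoter windows, 12 higher (upper panel) and 12 lower (lower panel) on high salt, with MCW_LS rats in blue and MCW_HS rats in red. The high-salt rats of Gp1bb reach 56.3%, and those of the LOC134485993 window, shared with Gng5, run from 5.88 to 15.8%.

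Few genes of salt handling and of the methylation machinery could be measured, and their promoters were low like most others. Of 106 genes in 6 lists, 32 were matched and 14 had a measured window, counted over sites with at least 10 reads in the 7 MCW libraries. These 14 genes had 15 windows, and 14 of the 15 had a mean level under 5%. On another set of sites, the common sites of all 15 libraries, 95.7% of the 5222 measured windows did. Sgk1, the aldosterone-induced kinase that raises sodium channel activity, had no methylated read in any rat (at least 96 reads per rat, which allows up to 3.13% in the thinnest library). Tet3, which oxidises methylcytosine, and Tdg, which excises the oxidised base, were also at 0 in all 7 rats, with limits of 3.37% and 4.29%. Slc9a3, the sodium-hydrogen exchanger NHE3, was at 0 to 3.63%, Oxsr1, a kinase that activates sodium chloride cotransporters, at 0 to 0.796%, and Ace, the angiotensin-converting enzyme, at 0 to 1.96%.

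Casr was the only list window whose groups did not overlap, against 2.62% of 5962 windows on these sites. It had 2.67%, 2.18% and 1.73% in MCW_LS and 6.06%, 4.66%, 3.52% and 7.31% in MCW_HS, over 10 CpGs read at least 337 times per rat. All high-salt rats were above all low-salt rats, at a low level throughout. The difference was 3.19 points (SE 0.869), and its adjusted p was 0.408 in the quasi-binomial model without a filter on level. Dnmt3a, a de novo methyltransferase, had 0%, 2.22% and 7.94% on low salt and 1.67%, 17.8%, 2.03% and 2.69% on high salt, and its groups overlapped. The high value was 1 rat, MCW_HS replicate 2, over 4 CpGs.

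Of the imprinted genes, a window of Gnas, which encodes the stimulatory G protein alpha subunit and related transcripts, was near the middle of the scale. It was at 63.9%, 37.0% and 47.2% in MCW_LS and at 37.5%, 45.2%, 58.3% and 51.7% in MCW_HS, with full overlap. Its other window was at 0 to 1.54%, and those of Igf2 and Dlk1 were at 0.781 to 5.53% and 0.122 to 0.879%. Within 10 kb of the starts of all list genes 18 bins were tested, and 1 had an unadjusted p under 0.05, against 6.23% of all bins. It was chr3:178478001-178478500 near Gnas (79.8% on low and 89.4% on high salt, adjusted p = 0.798 by the quasi-binomial model).

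Single CpGs gave calls, and none was left without MCW_LS replicate 2. Of 165091 sites tested by the quasi-binomial model with limma moderation, 147 were called at an adjusted p of 0.05 (0.089%), 26 higher (0.0157%) and 121 lower (0.0733%) on high salt. An unadjusted p under 0.05 was reached by 6.33%. The called sites formed 109 clusters within 50 kb and 137 distinct sets of counts. In simulated counts of the same depth, false calls at single sites made up more than the nominal share, so the calls do not hold their error rate. limma on log ratios and edgeR's quasi-likelihood test called 0 sites, with 8814 and 6864 at an unadjusted p under 0.05. Without MCW_LS replicate 2 the model called 0 as well, and with each of the other libraries left out it called 32 to 352.

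The called sites were read more deeply than the other sites tested. Their median depth, relative to the library's median, was 2.31, against 0.909 for all sites tested. The 26 higher sites stood at 26.8 times the library median, 22 of them at 5 times or more, and fell in 9 clusters. The higher site of smallest p, position 39272925 of chromosome 6, was read 626 to 3304 times per rat. It had 34.5%, 9.75% and 39.6% in MCW_LS and 40.6%, 66.6%, 61.0% and 60.4% in MCW_HS. The next 3 named sites, on chromosomes 14, 1 and 5, were read to a like depth and had much the same levels in each rat. At position 13558437 of chromosome 1, for example, the levels were 33.6%, 9.60% and 39.4% against 39.0%, 66.1%, 59.7% and 58.1%. These sites may not be separate measurements.

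At most called sites MCW_LS replicate 2 was the extreme rat. It had the highest level of the 7 rats at 109 of the 121 lower sites and the lowest at 24 of the 26 higher ones. The median level of the lower sites was 18.0%, 62.5% and 41.0% in MCW_LS and 12.5%, 6.06%, 8.57% and 11.8% in MCW_HS. The lower site of smallest p, position 12873723 of chromosome 15, had 37.8%, 74.6% and 54.0% against 14.3%, 18.2%, 9.84% and 6.90% (adjusted p = 0.00508 by the quasi-binomial model). Its difference was -43.2 points, and -33.6 without MCW_LS replicate 2 (adjusted p = 0.533 by that model). At the named higher site on chromosome 7, position 139420934, that rat was not extreme. The difference was 48.8 points with it and 49.02 without it (adjusted p = 0.0382 and 0.898 by the quasi-binomial model). This site was read 14 to 62 times per rat, and the high-salt rats ran from 30% to 90.9%. At position 60258382 of chromosome 19 the low-salt rats had 27.3%, 69.0% and 41.9%, and no high-salt rat had a methylated read, in 10 to 40 reads each. The thinnest of these allows up to 30%.

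The libraries differed at the lower sites mainly in their methylated reads. Relative to each library's median depth, the unmethylated reads at these 121 sites varied little over the 15 libraries of the table, from 1.20 to 1.91. The methylated reads varied from 0.0952 in MCW_HS replicate 2 to 2.67 in CRL_HS replicate 3, and stood at 2.47 in MCW_LS replicate 2. Those 2 libraries also had the highest depth at these sites, 4.33 and 5.21 times the library median. Across the 8 CRL rats, the median level of these sites rose with their relative depth (Pearson r = 0.963, exact permutation p = 0.000843). Without the 2 rats farthest from the median depth, r was 0.838. Level and depth are computed from the same reads, so this r is a description. The part of read depth as a cause of the calls was not tested.

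**Figure D5:**
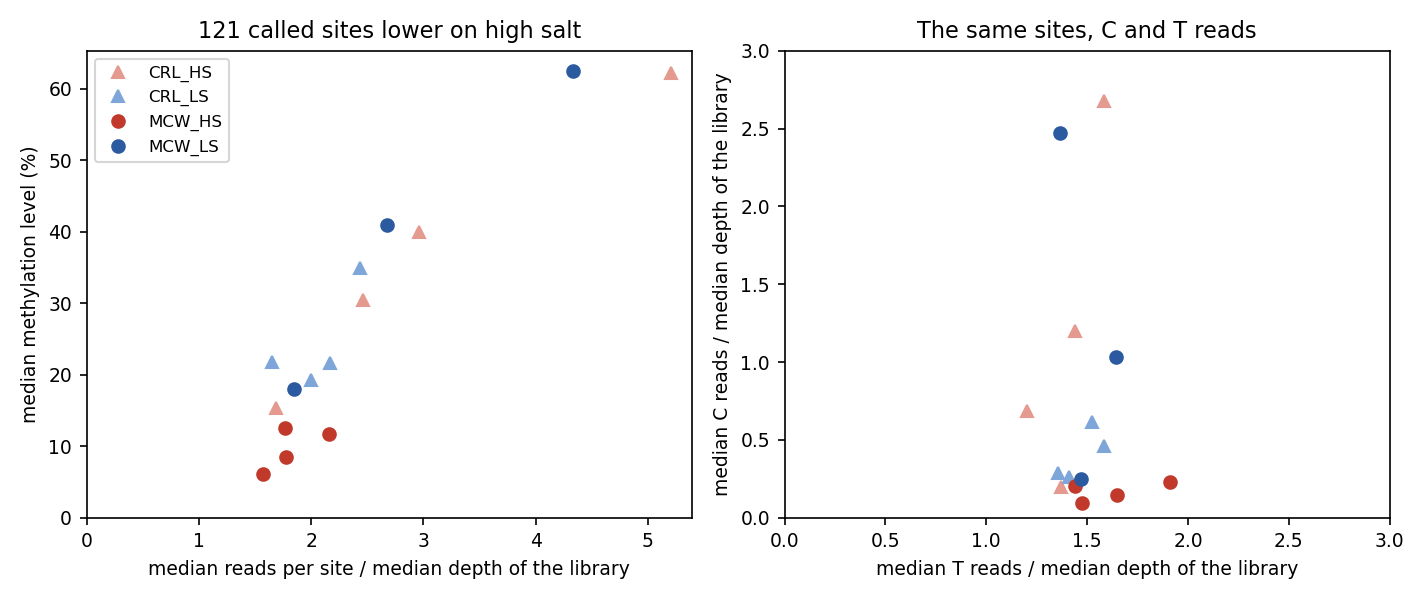
Called sites that were lower on high salt in MCW rats, by library over the 15 libraries of the first table. Relative reads are medians over 121 sites, divided by the library's median depth, and MCW_LS replicate 2 and CRL_HS replicate 3 have the most methylated reads (2.47 and 2.67).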

How the data were processed

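The members, the gene lists and the tests were chosen with earlier results of these data known. The deposited table gives, per the file headers, counts of C and of T reads for each rat at each CpG position. The build is rn5 and the trimmer Trim Galore 0.2.5, per the submitters' processing notes. The aligner, the methylation caller and the handling of PCR duplicates were not given in the sources used here. Intervals and limits cover counting error only.

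Sites with at least 10 reads in all 15 libraries of the table were kept. Counts of sites, of 500 bp bins and of promoter windows (3 or more sites) with a pooled level from 5 to 95% were compared by quasi-binomial logistic regression with 1 value per rat. The Pearson dispersion was moderated by squeezeVar of limma 3.58.1 and held at 1 or more. F tests were two-sided, with Benjamini-Hochberg adjustment over all features of a kind. Means per rat were compared by exact two-sided permutation over 35 arrangements. The test was tested on simulated data. Differences are of mean levels in percentage points, SE is the error of the difference, and ± gives the SD. Alternatives included edgeR 4.0.16, limma on log ratios, other filters and each library left out. Computations used Python 3.11.15, numpy 2.4.6, scipy 1.17.1 and R 4.3.3.

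No genome of the build rn5 was used here. RefSeq promoter windows of GRCr8 were therefore matched to the table by the spacing of their CpGs. A match began from 6 consecutive spacings and needed 8 matched CpGs and a lead of 3 over the next place. Of 9634 windows matched without use of the chromosome, 9556 (99.2%) lay on the chromosome of the same number and were kept. Nearest starts refer to these only, so a closer gene may be missing. A few of the placements may be wrong.

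Named bins were the 12 of smallest p per direction, leaving out 2 lower bins with nearly the same levels as one already named. Named sites were the 6 called sites of smallest p per direction, 1 per 50 kb cluster. The promoter match and its bounds, the promoter test (12 windows named per direction, 1 per overlapping stretch), the gene lists on the sites of the 7 MCW libraries, the classes by level and distance, the bound of 5 times the median depth, the reads of called sites by library and the printed sequences were chosen after the data were seen. Replicate numbers did not pair the rats. The deviations of same-numbered rats had r from -0.0370 to -0.0105 over bins, and 0 of 3 low-salt rats correlated best with their own number.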

Additional observations from a re-analysis of the deposited data

Results flagged for a closer look

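In the group of 4 MCW_HS rats, a rat was marked where its gap to the nearest other rat was large against the range of the group (Dixon's criterion at 95%). The named bins, sites and promoters and the means were looked at in 87 groups, and 3 were marked. Chance marks about 1 group in 20, so 3 is no more than chance would give.

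At the called site on chromosome 13, position 3524902, MCW_HS replicate 1 had 3% and the other high-salt rats 0%. In the promoter window of LOC134480864, MCW_HS replicate 1 had 18.2% and the others 48.1 to 53.5%. The window was lower on high salt by a difference of -16.2 points, and by -8.09 points without that rat. In the window of LOC134483848, MCW_HS replicate 4 had 25.7% and the others 54.8 to 58.1%, beside a difference of -13.5 points, or -5.79 points without that rat.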

How the results depend on the processing

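The mean differences kept their direction under each alternative run. With each library left out in turn, the difference over all common sites was 0.127 to 0.343 points and that over sites of 20 to 80% was 0.720 to 1.09 points. With sites weighted by their reads, they came to 0.739 and 1.59 points, with overlapping groups in both. The count of called bins was 0 under each alternative run, including 1000 bp bins and at least 5 sites per bin.

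The 147 called sites depended on the setting. The count was 90 with a minimum of 20 reads and 103 on the common sites of the 7 MCW libraries. It was 0 without the filter on level, 0 with limma on log ratios and 0 with edgeR. With the animal-number range as a block it was 41. Leaving out 1 library gave 0 to 352 calls, namely 268 without MCW_LS replicate 1, 0 without MCW_LS replicate 2 and 352 without MCW_LS replicate 3. It was 32 without MCW_HS replicate 2, 41 without replicate 3 and 32 without replicate 4. Without sites of 5 or more times the median depth it was 141, of which 5 were higher and 136 lower, an alternative chosen after the data were seen. The causes were not tested. Called promoter windows numbered 0 to 3 with each library left out, and the 3 came without MCW_HS replicate 1.

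With the replicate number as a block, 0 sites, 0 bins and 0 promoter windows were called. The numbers did not pair the rats, so this fit spends degrees of freedom on a number alone. No named bin, site or promoter reversed its direction. The 12 named sites lost their call in 79 of 184 recomputations, and the LOC134485993 window gained one in 1. The precision behind these results is a median SE of 2.85 points for a bin's difference and 6.18 points for that of a single site.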
